A study of Mus musculus with 41 samples.

Results

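The tibiae of 5-month-old mice 20 days after fracture were compared with tibiae of 5-month-old mice at day 0, to see which genes were still away from the level of unfractured bone and which lay within a bounded distance of it. The members were chosen by label alone: 5 arrays labelled 5 months and day 20, and 5 arrays labelled 5 months and day 0, which made 10 of the 41 arrays of the series. Each array came from a different mouse. All mice came from the NIH aged rodent colony, and neither strain nor sex is stated by the labels. Day 20 mice had both tibiae fractured in a closed manner around an intramedullary pin and received buprenorphine under isoflurane and for 3 more days. Day 0 samples carry the same tissue label, fracture callus, although no callus had formed. Extracts were either of a whole bone or of callus only, and no label says which kind an array received, so fracture and a difference in dissection cannot be told apart in any change below. The same days were sampled in 25-month-old mice, and young mice also on days 5 and 10 (5 arrays each).

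A closed fracture heals through a blood clot and inflammation, then a callus of fibrous tissue and cartilage, which vessels and osteoclasts invade while osteoblasts replace it with woven bone. Woven bone is later remodelled to lamellar bone, and marrow fills the space that resorption leaves. The marrow of an unfractured long bone makes neutrophils, red cells, platelets and B cells, and so carries much of the RNA of such a sample. In samples of whole tissue fewer cells of a type and less RNA per cell cannot be told apart.

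Values are log2 normalized intensities, changes are day 20 minus day 0 in log2 units with the standard error (SE) of the fit, and group means are given with the standard deviation (SD) of 5 arrays. A gene was called higher or lower where the limma test gave an adjusted p under 0.05 over 19938 genes. It was said to be held where the 95% interval of its change lay wholly within 1.5-fold in either direction, since a p that misses the threshold bounds nothing. The number of arrays limits the precision: the median SE was 0.12. Array medians ran between 5.374 and 5.483 over all arrays. Bone markers (Ibsp, Col1a1, Sp7) averaged 6.52 or more at day 0. The marrow markers Ly6g, Mpo, Alas2 and Pf4 averaged 10.53 or more at day 0. Some other marrow markers averaged less, such as Klf1 at 7.87, Cd79a at 6.66 and Rag1 at 6.05. The epidermal markers Krt5, Krt14 and Dsp averaged between 4.27 and 4.95 in both groups. The sample names of the day 20 arrays all belong to a series of low numbers, and those of day 0 to a series of high numbers (3 arrays) or of letters (2 arrays), so the name series and the day cannot be told apart between these groups alone. With the name series as a block, which the other groups then estimate, 3421 genes were called higher and 2178 lower in place of the counts below. Among day 0 arrays replicate 2 lay farthest from the others, at 0.408 log2 units (root mean square over genes) from their mean, where the other day 0 arrays lay between 0.246 and 0.298.

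At day 20 the young tibia remained far from unfractured bone. Of 19938 genes 7610 were called (38.2%), of which 4414 were higher (22.1%) and 3196 lower (16.0%). The groups did not overlap for 4616 genes (23.2%), and 4510 of these were called. Changes of at least 2-fold were called for 1123 genes in the higher and 861 in the lower direction, and of at least 8-fold for 23 and 11 genes. Per the authors' deposited table, a total of 10093 probe sets (35%) had a step-up p under 0.05 for the same contrast.

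Many genes were nevertheless bounded near the day 0 level. The change was held within 1.5-fold for 12478 genes (62.6%), and 11097 of these (55.7% of all genes) were not called either. A further 1381 genes (6.93%) were called but held, that is, they differed by a small amount. For 1231 genes (6.17%) the data neither called a difference nor bounded it. The share held fell with signal: it was 95.7% in the lowest of 4 equal groups of genes by mean level and 39.9% in the highest, where 57.8% were called. Of the held genes 4770 came from that lowest group.

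Over all genes the distance of single arrays from the day 0 mean did not separate day 20 from day 5 or day 10. The root mean square distance was 0.304 ± 0.062 for day 0 arrays, each taken against the other day 0 arrays, 0.644 ± 0.035 at day 5, 0.734 ± 0.071 at day 10 and 0.645 ± 0.085 at day 20 (SD, n = 5 each). The 5 day 20 arrays lay at 0.671, 0.714, 0.571, 0.728 and 0.541. Their mean was below that of day 10 by 0.089 (difference of -0.089; exact two-sided permutation test, p = 0.13, smallest possible 0.0079). Leaving out day 10 replicate 1, which lay nearest to day 0 of its group at 0.62, gave a difference of -0.117 with p = 0.032 by the same exact permutation test.

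**Figure D1:**
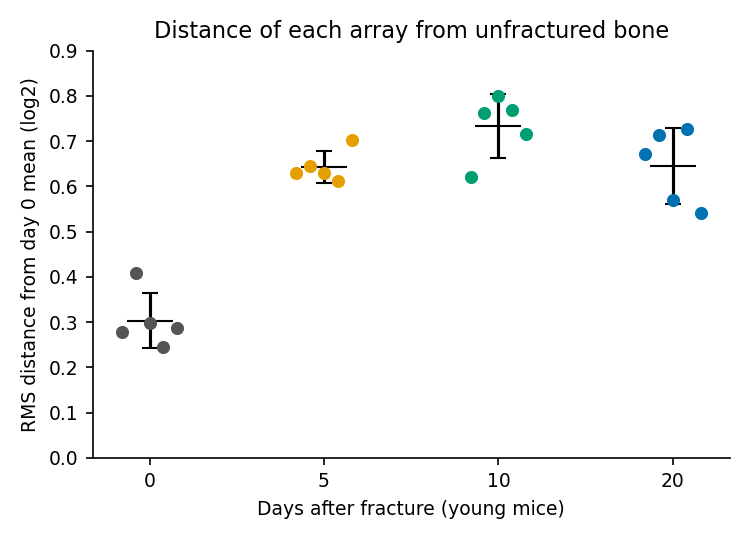
Root mean square log2 distance over 19938 genes of each young array (points) from the mean of the day 0 arrays, by day after fracture, with group mean and SD (n = 5). Day 0 arrays, each against the mean of the other 4, lie between 0.246 and 0.408, and every later array lies above them, at 0.541 or more.

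The 15 highest called genes without overlap, predicted genes aside, were Panx3, Slc9b2, Cd109, Aplnr, Slitrk6, Mmp16, Kdelr3, Cgref1, Atp6v0d2, Creb3l1, Slc13a5, Kazald1, Ctsk, Dcstamp and Cpz, with changes from 3.23 to 3.95. Of these, 4 stand in the osteoclast list described below, 1 each in the osteoblast, hypertrophic cartilage, endothelial and protease lists, and 7 in none. The 15 lowest were Pglyrp1, Ly6g, Lcn2, Olfm4, Ly6a2, Chil3, Pram1, Mmp8, Ltf, Ifitm6, Slfn4, Chil1, Cd177, Elane and Gca, from -3.57 to -2.90. Of these, 6 stand in the neutrophil list (Ly6g, Lcn2, Chil3, Mmp8, Ltf and Elane) and 9 in no list. Gene lists from textbook knowledge are described below by their counts and medians, beside the median of all genes, which was 0.03. Over all genes 22.1% were called higher, 16.0% lower and 62.6% held. Called members of a list were mostly named for the largest change and held members for the smallest. They do not stand for the whole list.

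**Figure D2:**
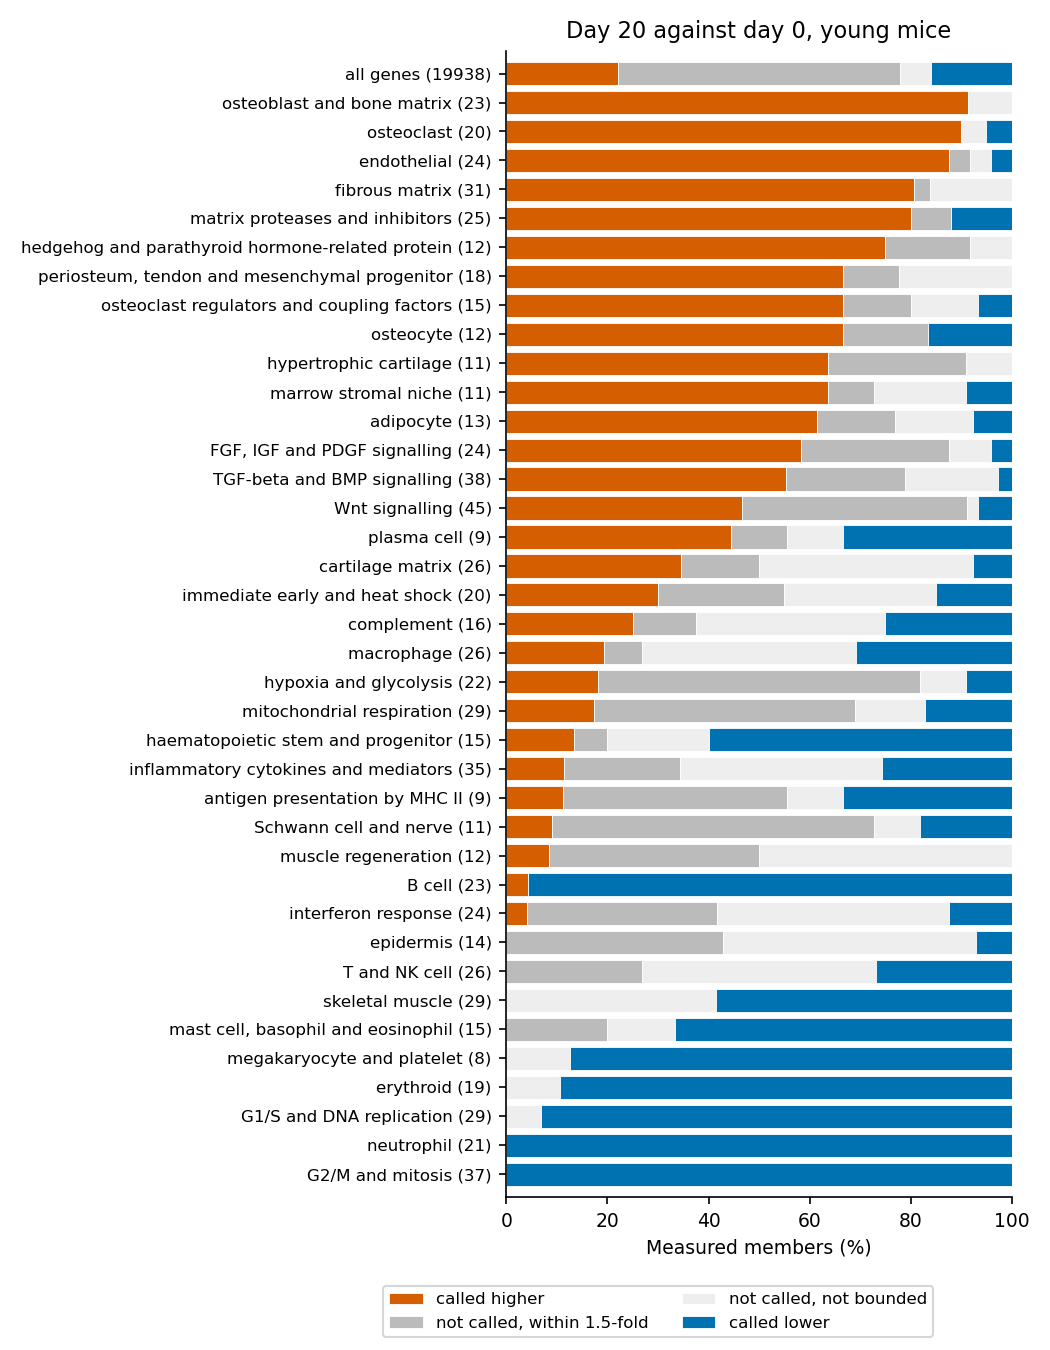
Share of the measured members of each gene list (number in brackets) that were called higher, not called and held within 1.5-fold, not called and not bounded, or called lower at day 20 against day 0 in young mice, with all genes at the top. Bone, osteoclast and endothelial lists are mostly called higher, and mitosis and neutrophil lists are called lower throughout.

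Bone formation was well above baseline. Of 23 measured osteoblast and bone matrix genes 21 were called higher and 0 lower, with a median change of 2.02, and all 21 were without overlap. Col1a1, the main chain of bone collagen, measured 12.71, 12.73, 12.67, 12.79 and 12.40 at day 20, against 9.04, 11.06, 8.71, 10.26 and 10.24 at day 0. Every day 20 array lay above every day 0 array, and the day 20 arrays were within a narrow band while the day 0 arrays were spread, replicate 2 being the highest. The change was 2.80 ± 0.34 (6.96-fold, adjusted p = 2.2e-08). Ibsp, the sialoprotein of mineralizing matrix, measured 12.21, 12.36, 12.21, 12.38 and 12.13 at day 20, against 9.71, 10.45, 8.86, 10.09 and 10.28 at day 0, again without overlap and with a change of 2.38 ± 0.29. Sp7, the transcription factor osterix that commits cells to the osteoblast fate, changed by 2.52 ± 0.35, and Alpl, the phosphatase that frees phosphate for mineral, by 2.53 ± 0.37. Slc13a5, a citrate transporter, rose 10.5-fold, Ifitm5, a membrane protein of osteoblasts, 6.84-fold, and Creb3l1, a transcription factor of the secretory pathway that acts on collagen genes, 10.5-fold. Atf4 and Msx2 were called but held, at 0.28 ± 0.07 and 0.32 ± 0.07, and Atf4 lost its call with the name series as a block (change 0.12, adjusted p = 0.35).

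Panx3, a channel protein of hypertrophic chondrocytes and osteoblasts, had the largest rise of all genes named. It measured 9.10, 9.28, 8.30, 9.48 and 8.34 at day 20, against 4.99, 5.20, 4.87, 5.16 and 4.53 at day 0. The groups did not overlap, with a change of 3.95 ± 0.42 (15.4-fold, adjusted p = 9.4e-10). Its means were 4.95, 7.57, 9.86 and 8.90 on days 0, 5, 10 and 20.

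Osteocyte genes were raised at day 20. Of 12 measured, 8 were called higher, 2 lower and 3 held (1 of them called), with list medians of -0.03, 0.40 and 1.07 at days 5, 10 and 20 against day 0. These 3 changes share the day 0 arrays. Dmp1, a matrix phosphoprotein of maturing osteocytes, measured 10.91, 10.98, 10.55, 10.91 and 10.41 at day 20, against 7.24, 8.39, 7.26, 8.46 and 8.53 at day 0, a change of 2.78 ± 0.45. Its means were 7.97, 7.93, 9.15 and 10.75 on days 0, 5, 10 and 20, and day 20 was above day 10 by 1.60 ± 0.45 (adjusted p = 0.011). Phex, an osteocyte endopeptidase of phosphate balance, rose by 2.66 ± 0.37 and Mepe, a mineral-binding matrix protein, by 1.02 ± 0.22. Sost, which encodes sclerostin, the Wnt inhibitor of mature osteocytes, did not share the rise: it measured 6.41, 6.42, 6.57, 6.25 and 6.37 at day 20, against 6.49, 6.81, 6.47, 6.73 and 6.81 at day 0, overlapping groups with a change of -0.26 ± 0.13 (95% interval -0.52 to 0.01, held). Arrays scaled anew put Sost below day 0, by a change of -0.32 after median centring (adjusted p = 0.042) and of -0.36 after quantile normalization (adjusted p = 0.03). Fgf23, the phosphaturic hormone, was called lower at -0.37 ± 0.10.

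Resorption genes were far above baseline, and several stood above their day 10 level. Of 20 osteoclast genes 18 were called higher and 1 lower at day 20 against day 0, with a median of 1.38, and 14 of those higher were without overlap. The list mean ran between 8.42 and 8.68 over the day 20 arrays, against 6.59 to 7.12 at day 0. Against day 10, 8 of the 20 were called higher and 0 lower, where 8.60% of all genes were called higher and 7.94% lower. Both contrasts use the day 20 arrays. The member called lower was Car2, a carbonic anhydrase that red cells also carry (change -1.32 ± 0.53, adjusted p = 0.045), named here after its value was seen, and its call was lost without day 20 replicate 1, 2 or 4 or day 0 replicate 1, 3, 4 or 5 (changes of -1.02 to -1.36).

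Slc9b2, a sodium-proton exchanger induced when osteoclasts form, measured 9.14, 9.50, 9.04, 9.70 and 8.91 at day 20, against 5.12, 5.30, 5.44, 5.68 and 5.65 at day 0. The change was 3.82 ± 0.31 (14.1-fold, adjusted p = 2.5e-12), and day 20 was above day 10 by 1.34 ± 0.31. Atp6v0d2, a subunit of the proton pump that acidifies the resorption pit, measured 10.53, 11.00, 10.87, 10.96 and 10.80 at day 20, against 7.71, 6.75, 7.34, 7.51 and 7.60 at day 0. Neither gene had overlapping groups. Dcstamp, needed for the fusion of osteoclast precursors, measured 7.75, 7.81, 7.31, 8.18 and 7.61 at day 20, against 4.45, 4.68, 4.45, 4.26 and 4.63 at day 0, with a change of 3.24 ± 0.23. Its means were 4.49, 5.01, 6.36 and 7.73 on days 0, 5, 10 and 20. Day 20 was the highest of these. Ctsk, the protease that cuts bone collagen, rose 9.68-fold (3.28 ± 0.31), Oscar, a co-stimulatory receptor, 5.62-fold, Acp5, tartrate-resistant acid phosphatase, 4.16-fold, and Mmp9, a gelatinase that neutrophils also make, 2.62-fold, a call that was lost with the name series as a block (change 0.81, adjusted p = 0.27).

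Regulators of osteoclasts were measured next, inhibitors and coupling factors among them. Of 15 osteoclast regulators and coupling factors 10 were called higher and 1 lower, with a median of 0.92. Tnfsf11, which encodes RANKL, changed by 1.16 ± 0.15 and Csf1, the macrophage growth factor, by 1.62 ± 0.17. Csf1r, the receptor for Csf1, changed by 1.39 ± 0.17. Cthrc1, a secreted protein of osteoblasts and osteoclasts, rose 8.82-fold, and Cxcr4, the chemokine receptor that keeps blood cells in marrow, fell by 1.42.

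Cartilage had come down steeply by day 20 and was not back at baseline. Of 26 cartilage matrix genes 19 were called lower at day 20 than at day 10 and 1 higher. Against day 0, 9 were called higher (34.6%), 2 lower (7.69%) and 4 held (15.4%), against 22.1%, 16.0% and 62.6% of all genes. The other 11 were neither called nor held. List medians against day 0 were 0.31, 1.86 and 0.43 at days 5, 10 and 20. The 9 called higher became 14 in a fit of the 10 arrays alone and 5 with the name series as a block. Acan, the aggregating proteoglycan of cartilage, measured 7.49, 7.63, 7.95, 7.86 and 6.16 at day 20, against 4.58, 5.68, 5.03, 5.40 and 5.16 at day 0. All day 20 arrays were above day 0, replicate 5 the least. Its change was 2.25 ± 0.50 (adjusted p = 0.00035), and its means were 5.17, 7.79, 10.29 and 7.42 on days 0, 5, 10 and 20, with day 20 below day 10 by a difference of -2.87 ± 0.50. Hapln1, the link protein that ties aggrecan to hyaluronan, followed with 4.37, 6.42, 9.86 and 6.36 on days 0, 5, 10 and 20, and Col2a1, the main collagen of cartilage, with 6.19, 6.85, 9.14 and 7.97 on days 0, 5, 10 and 20. Clec3a, a cartilage lectin, measured 7.79, 6.58, 8.27, 7.71 and 6.00 at day 20, against 4.67, 6.09, 5.04, 4.81 and 6.25 at day 0. Day 20 replicates 2 and 5 lay low, and the groups overlapped despite a call at 1.90 ± 0.52, which was lost with the name series as a block (adjusted p = 0.078).

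Individual cartilage genes ended on different sides of baseline. Col11a1, a minor fibrillar collagen that osteoblasts also express, measured 10.04, 10.28, 9.87, 10.21 and 9.64 at day 20, against 6.00, 8.09, 5.91, 7.13 and 7.02 at day 0 and did not come down between days 10 and 20 by the test (0.23 ± 0.37, adjusted p = 0.72). Scrg1, a secreted peptide gene first found in scrapie-infected brain and expressed in chondrogenic cells, measured 4.23, 4.02, 5.98, 4.85 and 4.46 at day 20, against 7.97, 6.91, 7.92, 7.31 and 6.81 at day 0. Its groups did not overlap, and it was lower at day 20, at -2.68 ± 0.45 with means of 7.38, 5.21, 8.69 and 4.71 on days 0, 5, 10 and 20. Epyc, a small proteoglycan of growing cartilage, averaged 3.66, 3.97, 5.10 and 3.74 on days 0, 5, 10 and 20 and was held at day 20 with a change of 0.08 ± 0.19. Its day 0 and day 20 means lie at the level of the lowest of 4 equal groups of genes, where 95.7% were held. Matn1, a matrilin, was held at 0.01 ± 0.18.

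Of 11 hypertrophic cartilage genes 7 were called higher, 0 lower and 3 held. Col10a1, the collagen of hypertrophic chondrocytes, measured 8.62, 8.63, 8.17, 8.91 and 8.17 at day 20, against 6.02, 6.30, 6.63, 6.28 and 6.37 at day 0. It was 4.53-fold above day 0 without overlap, with means of 6.32, 6.53, 11.21 and 8.50 on days 0, 5, 10 and 20, and day 20 differed from day 10 by -2.71 ± 0.38 (adjusted p = 3.1e-06). Mmp13, the collagenase that clears hypertrophic cartilage and is also made by osteoblasts, kept a rise of 2.83 ± 0.29. Ihh, the hedgehog ligand of prehypertrophic chondrocytes, measured 5.78, 5.92, 5.59, 5.64 and 5.71 at day 20, against 5.38, 5.59, 5.47, 5.65 and 5.97 at day 0 and was held at 0.11 ± 0.19, with means of 5.61, 5.52, 6.40 and 5.73 on days 0, 5, 10 and 20.

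Hedgehog targets parted at day 20. Hedgehog ligands bind the receptor Ptch1, which releases Smo and activates Gli factors, and Gli1, Ptch1 and Hhip are themselves targets that report the activity. Hhip, a decoy that binds the ligand, measured 3.98, 3.92, 4.08, 3.90 and 3.91 at day 20, against 4.05, 4.17, 3.95, 3.99 and 4.08 at day 0. All 10 values lay between 3.90 and 4.17, and the change of -0.09 ± 0.13 was held (95% interval -0.34 to 0.16). These values lie under 4.21, the highest mean in the lowest of 4 equal groups of genes by mean level. In that group 95.7% of genes were held, so a hold at this level says little about the gene. Hhip means were 4.05, 3.88, 5.81 and 3.96 on days 0, 5, 10 and 20. Gli1 averaged 5.48, 5.30, 6.58 and 5.46 on days 0, 5, 10 and 20, with a held change of -0.03 ± 0.13. Ptch1 measured 6.85, 7.07, 7.22, 7.34 and 6.88 at day 20, against 6.27, 5.72, 6.75, 5.93 and 5.72 at day 0, was called at 0.99 ± 0.27 (adjusted p = 0.0035, and 0.087 with the name series as a block) and lay below day 10 by a difference of -1.87 ± 0.27. Of the 12 hedgehog and parathyroid hormone-related protein genes 9 were called higher and 0 lower, among them Gli3 (1.5 ± 0.20), Gas1 (1.22 ± 0.16), Boc (1.17 ± 0.16) and Smo (1.05 ± 0.17).

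**Figure D3:**
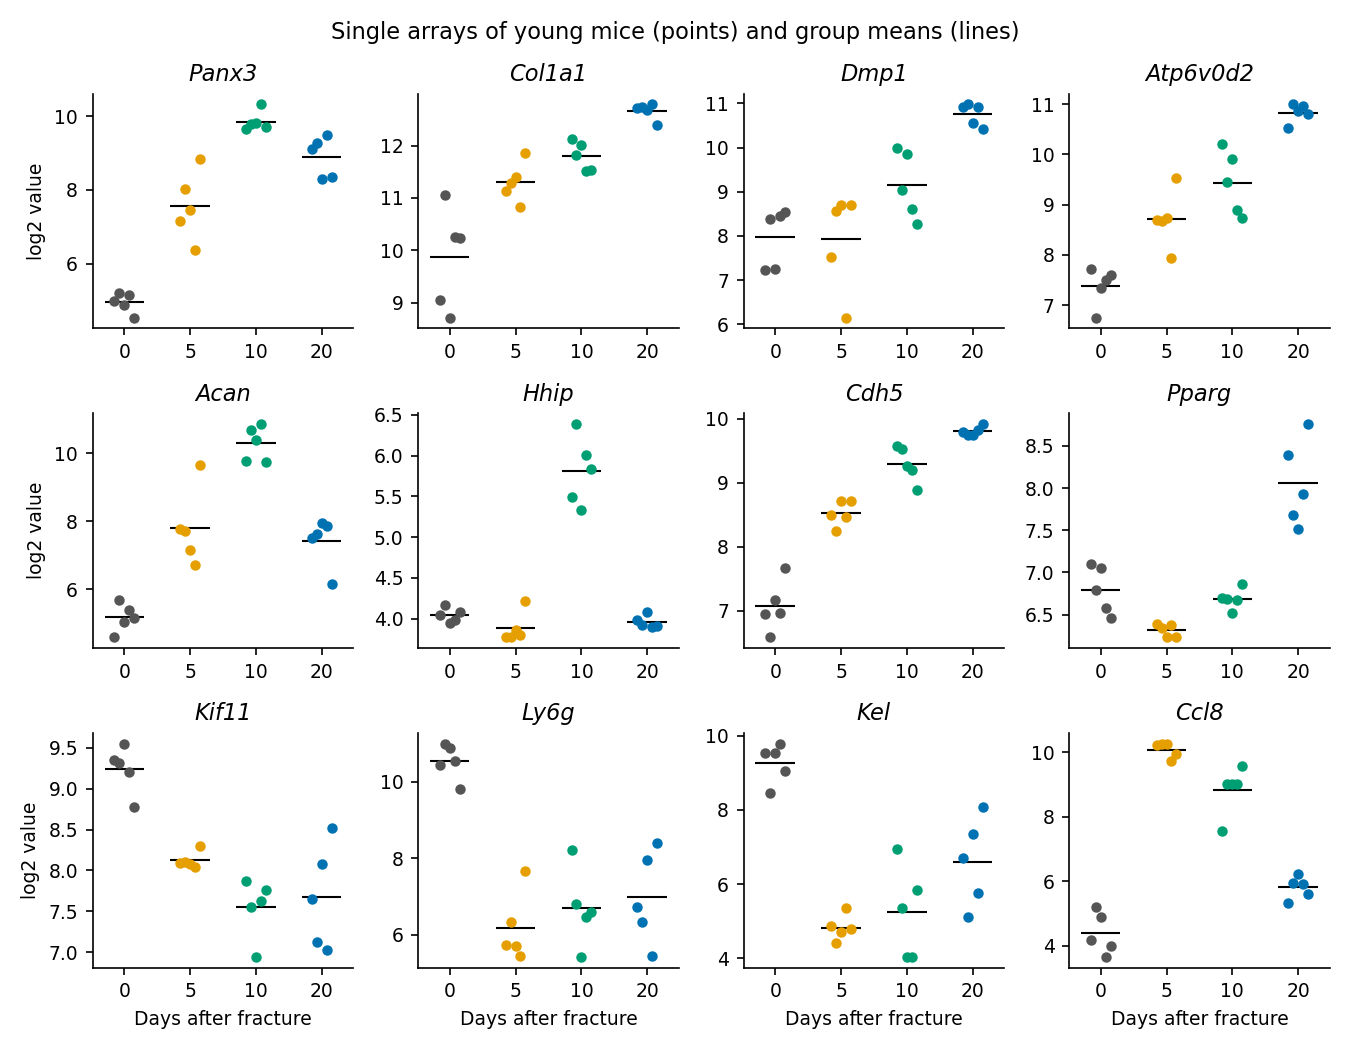
Log2 values of 12 genes on each young array (points) and group means (lines) by day after fracture (5 arrays a day). Panx3, Col1a1, Dmp1, Atp6v0d2 and Cdh5 are above day 0 at day 20, Hhip at day 20 is held within 1.5-fold of day 0, Pparg is high at day 20, and Kif11, Ly6g and Kel are below day 0 on every later day.

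Fibrous matrix remained raised while easing off its day 10 level. Of 31 genes 25 were called higher, 0 lower and 1 was held, with a median of 1.64, and 17 of the 31 were called lower at day 20 than at day 10. Lox, which crosslinks collagen and elastin, measured 10.38, 10.32, 10.00, 10.24 and 10.19 at day 20, against 6.63, 8.02, 6.42, 6.88 and 7.58 at day 0. No array overlapped, and the change was 3.12 ± 0.26 (8.71-fold). Tnc, the adhesion-modulating tenascin of healing tissue, measured 11.53, 11.42, 11.24, 11.37 and 11.52 at day 20, against 8.77, 8.88, 8.16, 8.71 and 9.22 at day 0 and was above day 10 too, by 0.63 ± 0.22 (adjusted p = 0.049). Col5a2, a collagen that regulates fibril width, rose 8.44-fold. Fbln1, a fibulin of loose connective tissue, was the member held, at 0.27 ± 0.15 with means of 6.09, 6.55, 7.10 and 6.37 on days 0, 5, 10 and 20, and it was called higher without day 0 replicate 5 (change 0.40, adjusted p = 0.03).

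Matrix proteases and inhibitors were called higher in 20 of 25 and lower in 3. Mmp16, a membrane-anchored metalloproteinase, measured 8.90, 9.17, 8.65, 9.14 and 8.94 at day 20, against 4.98, 6.41, 4.94, 5.58 and 5.46 at day 0. The day 20 arrays lay above all day 0 arrays, and day 20 was above day 10 by 1.31 ± 0.29. Adam12, a membrane protease and marker of active stroma, rose 9.16-fold and Mmp14, which activates other proteases at the cell surface, 5.3-fold. Timp1, an inhibitor of these enzymes, was raised 6.64-fold at day 20, with means of 7.58, 11.86, 10.88 and 10.31 on days 0, 5, 10 and 20. Adam19 was held at -0.03 ± 0.13 and Timp4 at 0.01 ± 0.23. Among 18 periosteum, tendon and mesenchymal progenitor genes 12 were called higher and 0 lower, with Twist1 at 2.41 ± 0.24, Pdgfra at 2.03 ± 0.18 and Fap at 1.97 ± 0.27.

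Of 38 TGF-beta and BMP genes 21 were called higher (55.3%), 1 lower (2.63%) and 9 held (23.7%), against 22.1%, 16.0% and 62.6% of all genes. Bambi, a pseudoreceptor that dampens TGF-beta signals, measured 9.46, 9.19, 8.93, 9.29 and 9.17 at day 20, against 6.40, 7.69, 6.64, 6.63 and 6.87 at day 0, a change of 2.36 ± 0.25 without overlap. Tgfbr1, the type I receptor, changed by 1.81 ± 0.15 and lay above day 10 by 0.79 ± 0.15 (adjusted p = 0.00015). Bmp1, a protease that trims procollagen and is no BMP ligand, changed by 2.61 ± 0.23. The BMP antagonist Nog was held at 0.03 ± 0.15, and so were the ligand Gdf6 at 0.02 ± 0.11 and the endothelial receptor Acvrl1 at -0.05 ± 0.09.

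Of 45 measured Wnt genes 21 were called higher, 3 lower and 21 held (1 of them called), which is 46.7% held, beside 62.6% of all genes. Wif1, a secreted Wnt inhibitor, measured 8.99, 8.62, 8.26, 8.86 and 8.80 at day 20, against 5.67, 6.21, 5.87, 6.08 and 6.26 at day 0. Its groups did not overlap, the change was 2.69 ± 0.34, and day 20 was above day 10 by 1.15 ± 0.34 (adjusted p = 0.017). Rspo3, an amplifier of Wnt signals, rose 4.4-fold and its receptor Lgr4 5.08-fold. Sfrp2, a secreted Wnt-binding protein, averaged 7.23, 11.02, 10.92 and 8.98 on days 0, 5, 10 and 20 and was still 3.35-fold above day 0, with overlap through day 0 replicate 5. Axin2, a feedback target of the pathway, measured 5.19, 5.41, 5.75, 5.73 and 5.56 at day 20, against 5.44, 5.52, 5.21, 5.74 and 5.68 at day 0. Its groups overlapped fully and the change of 0.01 ± 0.13 was held (95% interval -0.26 to 0.28), as were those of Sfrp5 (0.00 ± 0.14) and the ligand Wnt7b (0.00 ± 0.09).

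Among 24 genes of FGF, IGF and PDGF signalling 14 were called higher, 1 lower and 7 held. Fgf7, the keratinocyte growth factor of stromal cells, measured 6.84, 6.92, 6.84, 6.85 and 6.83 at day 20, against 6.43, 7.04, 6.45, 6.85 and 7.33 at day 0. The day 20 arrays lay between 6.83 and 6.92, inside the day 0 range, and the change of 0.03 ± 0.27 was held, where the means were 6.82, 8.06, 8.23 and 6.85 on days 0, 5, 10 and 20. Fgfr2 changed by 1.63 ± 0.21 and Igfbp3, a carrier of insulin-like growth factors, by 1.86 ± 0.22, with Igfbp3 means of 6.42, 8.70, 9.91 and 8.28 on days 0, 5, 10 and 20.

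Vessel genes were above baseline. Of 24 endothelial genes 21 were called higher, 20 of them without overlap, and 1 was called lower, with list medians of 0.45, 1.07 and 1.3 against day 0 at days 5, 10 and 20. Cdh5, the cadherin of endothelial junctions, measured 9.79, 9.74, 9.74, 9.83 and 9.92 at day 20, against 6.94, 6.58, 7.17, 6.97 and 7.67 at day 0. The day 20 arrays agreed closely, and the change was 2.74 ± 0.17 (6.67-fold, adjusted p = 5.7e-15). Aplnr, the apelin receptor of growing vessels, measured 9.62, 9.68, 9.34, 9.82 and 9.24 at day 20, against 5.53, 6.30, 5.93, 6.00 and 6.36 at day 0, a change of 3.52 ± 0.23. Emcn, a sialomucin of sinusoids and of the vessels that accompany bone growth, rose 6.34-fold and Kdr, the main VEGF receptor, 4.11-fold. Icam2, also of leukocytes and platelets, was held at -0.11 ± 0.17. The member called lower was Vwf, the clotting factor that megakaryocytes make as well, named after its value was seen (change -1.58, adjusted p = 2.34e-08).

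Genes of fat and marrow stroma were raised at day 20. Of 13 adipocyte genes 8 were called higher and 1 lower, with list medians of -0.08, -0.11 and 0.76 at days 5, 10 and 20, and of 11 marrow stromal niche genes 7 were called higher and 1 lower. The 8 adipocyte calls became 4 without day 20 replicate 1, 5 without day 20 replicate 5, 5 without day 0 replicate 4 and 4 with the name series as a block. Pparg, the master transcription factor of adipocytes that osteoclasts and macrophages also express, measured 8.39, 7.68, 7.52, 7.93 and 8.76 at day 20, against 7.10, 6.79, 7.05, 6.58 and 6.46 at day 0. Replicates 1 and 5 were highest and no day 20 array reached down to day 0. The change was 1.26 ± 0.18 (adjusted p = 2.8e-07), and day 20 was above day 10 by 1.37 ± 0.18 (adjusted p = 6.1e-07). Adipoq, adiponectin, measured 8.79, 7.37, 7.67, 8.0 and 9.47 at day 20, against 7.76, 7.71, 7.15, 7.15 and 7.15 at day 0, which overlapped through replicates 2 and 3 and was called at 0.88 ± 0.34 (adjusted p = 0.04). That call was lost without day 20 replicate 1 or 5 or day 0 replicate 3, 4 or 5, with changes of 0.75, 0.57, 0.82, 0.82 and 0.82. Kitl, the stem cell factor of marrow stroma, changed by 1.42 ± 0.17, Lepr, the leptin receptor that marks such stroma, by 1.20 ± 0.25, and Foxc1, a transcription factor of the niche, by 2.30 ± 0.19. Slc2a4, the insulin-regulated glucose transporter of fat and muscle, went the other way with -1.60 ± 0.30.

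Genes of several blood cell types were far below day 0. All 21 measured neutrophil genes were called lower without overlap, with a median of -2.48, and 22 of 23 B cell genes, 17 of 19 erythroid genes, 7 of 8 megakaryocyte and platelet genes and 10 of 15 mast cell, basophil and eosinophil genes were called lower too. Across the day 20 arrays the mean level of the neutrophil list was 7.80, 7.31, 8.41, 6.66 and 8.65, against 10.45, 10.08, 10.45, 10.33 and 9.93 at day 0. The erythroid list had 7.61, 6.41, 8.20, 6.76 and 8.61 at day 20, against 9.66, 8.77, 9.84, 9.73 and 9.18 at day 0. Replicates 3 and 5 were the highest of their group in both lists and in the platelet and mitosis lists, and replicates 2 and 4 the lowest.

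**Figure D4:**
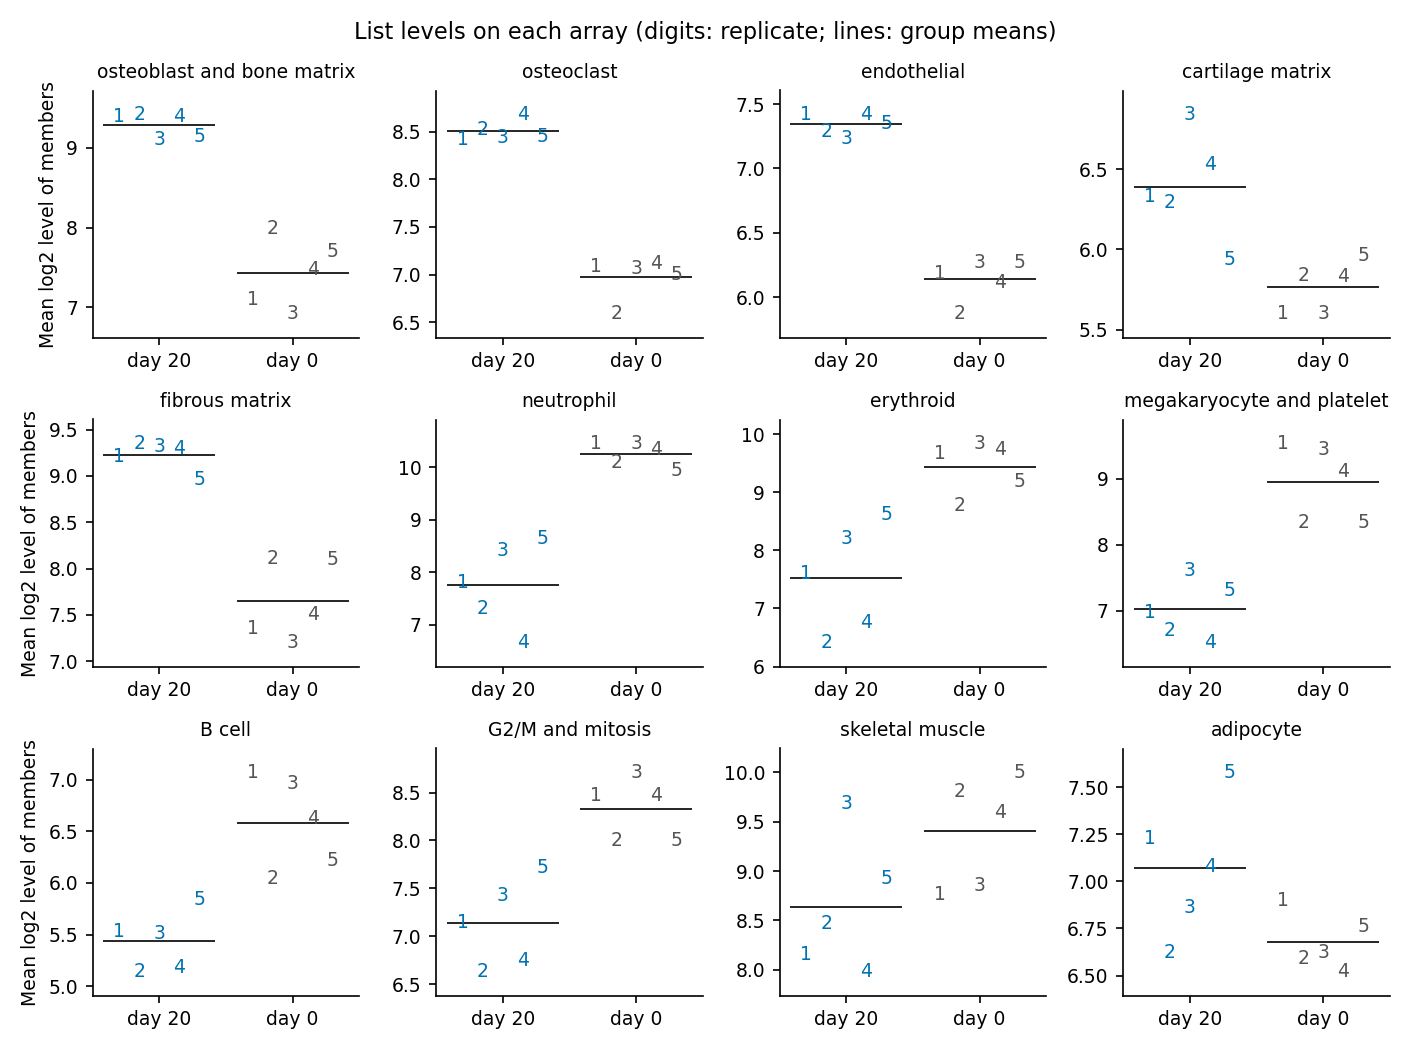
Mean log2 level of the members of 12 gene lists on each day 20 and day 0 array of young mice (digits are replicate numbers, lines are group means). The groups are apart for bone, osteoclast, endothelial, fibrous, neutrophil, erythroid, platelet, B cell and mitosis lists and overlap for cartilage, muscle and adipocyte lists, and day 20 replicates 3 and 5 lie nearest to day 0 for neutrophil, erythroid and platelet genes.

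The promoters of several of these genes are shown because some short motifs were more frequent in lists that fell than in all promoters. Each printed window was picked for holding its motif, so the match in it is no result. Members called lower were taken in the order of their change, and those without the motif or with several windows were skipped. The 150 bases before the RefSeq start on the gene's strand (GRCm38.p6) are printed, and capitals mark the match on either strand, which is TTGCNNAA for the C/EBP factors of myeloid cells (Mmp8 and Ltf) and AGATAA for the GATA factors of erythroid cells (Kel and Rhd). The windows are Mmp8 chr9:7558279-7558428 (+), Ltf chr9:111019142-111019291 (+), Kel chr6:41704326-41704475 (-) and Rhd chr4:134864386-134864535 (+).
Mmp8: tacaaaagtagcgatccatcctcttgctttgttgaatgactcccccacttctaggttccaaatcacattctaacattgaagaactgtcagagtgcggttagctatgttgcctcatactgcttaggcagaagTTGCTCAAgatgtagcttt
Ltf: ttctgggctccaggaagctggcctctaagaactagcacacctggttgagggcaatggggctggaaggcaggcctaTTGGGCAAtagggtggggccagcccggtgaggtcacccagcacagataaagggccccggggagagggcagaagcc
Kel: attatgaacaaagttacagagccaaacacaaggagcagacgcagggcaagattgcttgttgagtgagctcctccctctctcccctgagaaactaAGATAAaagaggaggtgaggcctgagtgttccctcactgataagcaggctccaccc
Rhd: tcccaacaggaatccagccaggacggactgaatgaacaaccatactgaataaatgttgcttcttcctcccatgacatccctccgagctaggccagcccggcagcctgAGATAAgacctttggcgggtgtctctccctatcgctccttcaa
In windows of 250 bases before to 50 after the start, TTGCNNAA lay in 8 of 21 neutrophil windows (38.1%), against 9.8% of 19116 windows of all genes. AGATAA lay in 7 of 15 erythroid windows (46.7%) and in 2 of 7 megakaryocyte and platelet windows (28.6%), against 9.2% of all. GAGGAA, the PU box of myeloid factors, lay in 66.7% of neutrophil, 61.9% of macrophage and 22.2% of osteoclast windows, against 27% of all. TGTGGT, read by RUNX factors, lay in 11.8% of osteoblast and 23.8% of neutrophil windows, against 14.2% of all. No motif contains another, each was searched on both strands, and a match is a description of letters. Of 787 list genes 572 had a window.

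Neutrophil genes were far below baseline. Ly6g, the surface marker of mature mouse neutrophils, measured 6.72, 6.34, 7.95, 5.45 and 8.40 at day 20, against 10.44, 10.99, 10.87, 10.54 and 9.81 at day 0. The day 20 arrays were widely spread and all lay below day 0, a change of -3.56 ± 0.53 (11.8-fold lower, adjusted p = 1e-06). Ltf, the iron-binding lactoferrin of secondary granules, measured 8.42, 7.64, 9.52, 6.45 and 9.54 at day 20, against 11.47, 11.33, 11.43, 11.62 and 11.12 at day 0, and Mmp8, the neutrophil collagenase, 7.58, 7.60, 8.28, 6.91 and 8.50 at day 20, against 11.08, 11.06, 11.03, 10.96 and 10.23 at day 0. Both lacked overlap, with changes of -3.08 ± 0.48 and -3.10 ± 0.34. Elane, the elastase of primary granules that promyelocytes transcribe, changed by -2.91 ± 0.45, Olfm4, an olfactomedin of a neutrophil subset, by -3.39 ± 0.33 and Pglyrp1, a peptidoglycan-binding granule protein, by -3.57 ± 0.39. The day 5 and day 10 medians of the list against the same day 0 arrays were -2.50 and -2.40, and the median of day 20 minus day 10 was -0.20.

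Erythroid genes were below day 0, and some of them were above day 10. Their list medians against day 0 were -4.05, -3.59 and -2.02 at days 5, 10 and 20, and 10 of 19 were called higher at day 20 than at day 10, with 0 lower. List means of the day 20 arrays (6.41 to 8.61) overlapped those of the day 10 arrays (5.0 to 7.74). Kel, a blood group endopeptidase of red cells, measured 6.71, 5.10, 7.35, 5.77 and 8.08 at day 20, against 9.53, 8.47, 9.53, 9.79 and 9.04 at day 0. The highest day 20 array, replicate 5, lay just under the lowest day 0 array, and the change was -2.67 ± 0.53 (adjusted p = 8.7e-05). Rhag, the ammonia channel that carries the Rh complex, measured 7.69, 5.86, 8.34, 6.57 and 8.95 at day 20, against 9.80, 9.24, 10.13, 9.80 and 9.09 at day 0. Its means were 9.61, 4.66, 5.43 and 7.48 on days 0, 5, 10 and 20, and day 20 was above day 10 by 2.05 ± 0.67 (adjusted p = 0.031) while still below day 0 by a change of -2.13 ± 0.67. Alas2, the first enzyme of haem synthesis in red cells, changed by -1.83 ± 0.38 and Klf1, their transcription factor, by -1.54 ± 0.36.

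B cell genes had medians of -1.71, -1.90 and -1.16 at days 5, 10 and 20, with 7 of 23 higher and 1 lower at day 20 than at day 10. Vpreb3, a chaperone of the pre-B cell receptor, measured 5.41, 5.54, 6.20, 5.31 and 6.01 at day 20, against 8.73, 6.75, 8.88, 7.64 and 7.12 at day 0. The change was -2.13 ± 0.32 without overlap. Rag1, the recombinase of developing lymphocytes, changed by -1.62 ± 0.23. The platelet chemokine genes Ppbp (-2.72 ± 0.58) and Pf4 (-2.23 ± 0.29) were lower, as were the eosinophil granule genes Prg2 (-2.71 ± 0.51) and Ear6 (-2.69 ± 0.46) and Jchain, the joining chain of secreted antibodies (-2.74 ± 0.49). The plasma cell list was split, with 4 of 9 called higher (44.4%) and 3 lower (33.3%), against 22.1% and 16.0% of all genes. Its higher members include Fkbp11, Sdc1 and Prdm1, which other secretory or stromal cells also express, and the part of such cells was not tested. T and NK cell genes were called lower in 7 of 26 (26.9%, against 16.0% of all genes) and higher in 0, among them Il7r (-1.69 ± 0.37) and Nkg7 (-1.68 ± 0.47). Those 7 calls became 3 without day 20 replicate 1 and 4 without day 20 replicate 2 or day 0 replicate 1 or 3. In the progenitor list 9 of 15 were lower, including Myb (-2.13 ± 0.34), and Cd34, also an endothelial gene, was higher (0.96 ± 0.16).

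Cell cycle genes were below the day 0 level, and lists of blood-forming cells moved with them. All 37 measured genes of G2/M and mitosis were called lower, 24 without overlap, with a median of -1.21, and 27 of 29 genes of G1/S and DNA replication were called lower, 7 without overlap, with a median of -0.90. The mitosis list mean was 7.14, 6.63, 7.43, 6.75 and 7.72 on day 20 arrays, against 8.47, 8.0, 8.71, 8.47 and 8.0 at day 0. The order of the day 20 arrays put replicates 5 and 3 highest, as for the erythroid and neutrophil lists. The part of the marrow lists in the cell cycle result was not tested. Medians at days 5, 10 and 20 were -0.56, -1.48 and -1.21 for mitosis and -0.61, -1.26 and -0.90 for replication.

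Promoters of 4 of these genes are shown with motifs that are known from cell cycle promoters. They too were picked for holding these motifs. Capitals mark CCAAT and TTTGAA, the cell-cycle homology region of mitotic genes, in Ube2c chr2:164769779-164769928 (+) and Kif11 chr19:37376232-37376381 (+), and TTCCCGC, an E2F site, in Cdc6 chr11:98908001-98908150 (+) and Pola1 chrX:93632156-93632305 (-), each on either strand.
Ube2c: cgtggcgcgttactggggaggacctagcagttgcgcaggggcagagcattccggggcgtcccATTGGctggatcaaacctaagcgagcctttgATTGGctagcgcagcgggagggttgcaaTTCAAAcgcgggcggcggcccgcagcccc
Kif11: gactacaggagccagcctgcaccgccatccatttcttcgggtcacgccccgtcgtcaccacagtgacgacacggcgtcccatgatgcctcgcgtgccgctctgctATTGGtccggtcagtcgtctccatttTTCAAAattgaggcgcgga
Cdc6: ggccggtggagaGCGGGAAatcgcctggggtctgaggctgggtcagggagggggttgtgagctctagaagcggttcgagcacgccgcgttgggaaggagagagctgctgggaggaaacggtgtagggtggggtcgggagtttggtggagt
Pola1: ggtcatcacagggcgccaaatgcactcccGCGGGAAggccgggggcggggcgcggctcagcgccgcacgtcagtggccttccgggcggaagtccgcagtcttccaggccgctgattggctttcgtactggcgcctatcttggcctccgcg
TTTGAA lay in 24 of 32 windows of mitosis genes (75.0%) and in 11.1% of windows of replication genes, against 14.8% of all windows. CCAAT lay in 75.0% of mitosis and 63.0% of replication windows, against 37.4% of all, and both motifs together in 65.6% of mitosis windows, against 5.8% of all. TTCCCGC lay in 12 of 27 replication windows (44.4%) and in 3.1% of mitosis windows, against 6.4% of all.

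Ube2c, the conjugating enzyme that works with the anaphase-promoting complex, measured 8.24, 7.68, 8.91, 7.95 and 9.10 at day 20, against 10.32, 9.23, 10.46, 10.10 and 9.62 at day 0. The change was -1.58 ± 0.28 (2.98-fold lower). Kif11, the motor that pushes spindle poles apart, measured 7.65, 7.12, 8.08, 7.03 and 8.52 at day 20, against 9.35, 9.31, 9.55, 9.20 and 8.78 at day 0, and replicate 5 came close to the lowest day 0 array without crossing it. Rrm2, a subunit of the enzyme that makes deoxynucleotides, measured 7.84, 6.55, 7.91, 6.89 and 8.69 at day 20, against 9.79, 8.55, 10.22, 9.58 and 9.17 at day 0, with a change of -1.88 ± 0.40 and overlap through replicate 5. Cdc6, a loader of the replication helicase, changed by -1.37 ± 0.29 and Pola1, the catalytic subunit of the priming polymerase, by -1.33 ± 0.21.

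Of 35 inflammatory cytokines and mediators 4 were called higher (11.4%), 9 lower (25.7%), 8 held (22.9%) and 14 neither, against 22.1%, 16.0% and 62.6% of all genes called higher, lower and held. The list medians were 0.93, 0.21 and -0.05 at days 5, 10 and 20. The list mean overlapped between groups, at 5.99 to 6.26 at day 20 and 6.17 to 6.40 at day 0. Ccl8, a monocyte chemokine, measured 5.34, 5.95, 6.23, 5.90 and 5.62 at day 20, against 4.18, 5.20, 4.90, 3.65 and 4.0 at day 0. It was still called higher at 1.42 ± 0.33, and its means were 4.39, 10.08, 8.84 and 5.81 on days 0, 5, 10 and 20, with day 20 below day 10 by a difference of -3.03 ± 0.33. Tnfaip6, a hyaluronan-binding protein of inflamed tissue, remained 2.95-fold above day 0 and Ptgs2, the inducible prostaglandin synthase, 2.25-fold. Il4ra, the receptor chain for interleukins 4 and 13, measured 6.96, 6.75, 7.05, 7.45 and 7.07 at day 20, against 7.43, 6.42, 7.36, 7.23 and 6.91 at day 0 and was held at -0.01 ± 0.19, after a day 5 mean of 9.06. Il10 was held at 0.01 ± 0.09 and Cxcl3 at 0.05 ± 0.22.

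Of the members called lower, Lcn2, a siderophore-binding granule protein, measured 8.79, 7.98, 9.82, 6.66 and 10.28 at day 20, against 12.36, 11.68, 12.31, 12.53 and 11.94 at day 0, with replicate 4 lowest and a change of -3.46 ± 0.45. Lcn2, S100a8 and S100a9 stand in the neutrophil list as well, of which all 21 members were called lower. The lower counts of these lists are therefore not separate results. Il1a changed by -1.62 ± 0.29 and Ccl6 by -2.02 ± 0.23.

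Of 26 macrophage genes 5 were called higher (19.2%, against 22.1% of all genes), 8 lower (30.8%, against 16.0%), 2 held and 11 neither, with medians of 1.59, 0.05 and 0.10 at days 5, 10 and 20. Adgre1, which encodes a macrophage surface antigen, measured 6.94, 6.91, 7.34, 6.33 and 7.39 at day 20, against 7.47, 6.78, 7.20, 6.40 and 6.34 at day 0 and was held at 0.15 ± 0.21, with means of 6.84, 8.90, 7.73 and 6.98 on days 0, 5, 10 and 20. Cd68, a lysosomal glycoprotein that osteoclasts share, measured 9.87, 10.04, 10.17, 10.24 and 9.82 at day 20, against 9.15, 7.70, 8.87, 7.97 and 7.94 at day 0 and did not overlap, at 1.70 ± 0.26. Ms4a7 was higher at 1.31 ± 0.24, whereas Chil3, which immature myeloid cells also express, was lower at -3.15 ± 0.44 and Spic, the factor of red pulp and marrow macrophages, at -1.40 ± 0.37, although not with the name series as a block (adjusted p = 0.097).

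Complement genes were called higher in 4 of 16 and lower in 4 (25.0% each, beside 22.1% and 16.0% of all genes). C3ar1, the receptor for the anaphylatoxin C3a, measured 6.22, 6.71, 7.47, 6.99 and 6.99 at day 20, against 6.40, 6.31, 6.20, 5.93 and 5.43 at day 0, called at 0.82 ± 0.23 with overlap and with means of 6.05, 9.79, 7.86 and 6.88 on days 0, 5, 10 and 20. Of 9 MHC II genes 1 was called higher (11.1%), 3 lower (33.3%) and 4 held (44.4%), against 22.1%, 16.0% and 62.6% of all genes. Those held include the lysosomal protease Ctss at -0.02 ± 0.20 (95% interval -0.42 to 0.38), with means of 9.19, 10.67, 9.33 and 9.17 on days 0, 5, 10 and 20. Among 24 interferon response genes 1 was called higher (Ifit3), 3 lower (12.5%) and 9 held (37.5%). Rsad2, an antiviral enzyme, measured 6.88, 6.46, 8.04, 6.47 and 8.24 at day 20, against 9.12, 8.45, 9.55, 9.22 and 9.01 at day 0 and was below day 0 at -1.85 ± 0.36, without overlap.

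Skeletal muscle genes were lower at day 20 with wide spread between arrays. Of 29, 17 were called lower, 0 higher and 0 held, and none was without overlap. The list mean was 8.15, 8.47, 9.68, 7.98 and 8.92 at day 20, against 8.76, 9.81, 8.85, 9.59 and 10.00 at day 0. Day 20 replicates 3 and 5 lay above day 0 replicates 1 and 3, and day 20 replicate 3 lay above day 0 replicate 4 too. Acta1, the actin of muscle fibres, measured 10.36, 10.36, 11.93, 9.69 and 11.39 at day 20, against 11.51, 11.87, 11.40, 12.01 and 12.47 at day 0, a change of -1.10 ± 0.27, and Ckmt2, a mitochondrial creatine kinase, changed by -1.70 ± 0.45. Cox8b, a subunit of cytochrome oxidase found in muscle and brown fat and counted with mitochondrial respiration, measured 8.89, 9.17, 10.56, 8.49 and 9.61 at day 20, against 11.05, 11.72, 11.58, 11.78 and 12.18 at day 0, a change of -2.32 ± 0.32 without overlap. The 17 calls became 6, 8 and 11 without day 20 replicates 4, 1 and 2, 7 and 8 without day 0 replicates 5 and 2, and 4 with the name series as a block. The share of muscle in the dissected tissue is not given, and its part in these values was not tested.

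Of 12 muscle regeneration genes 1 was called higher, 0 lower, 5 held (41.7%, against 62.6% of all genes) and 6 neither, with medians of 1.77, 1.26 and 0.09 at days 5, 10 and 20. Myod1, the factor that commits myoblasts, measured 5.99, 5.53, 6.36, 5.79 and 5.90 at day 20, against 5.87, 6.11, 5.34, 5.95 and 6.21 at day 0 and was held at 0.02 ± 0.25. Myl4, an embryonic myosin light chain, averaged 6.93, 9.49, 9.20 and 6.91 on days 0, 5, 10 and 20 and was held at -0.02 ± 0.26.

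Of 22 hypoxia and glycolysis genes 14 were held (63.6%, against 62.6% of all genes). Another 4 were called higher (18.2%) and 2 lower (9.09%), against 22.1% and 16.0% of all genes. The list mean did not overlap between groups, at 7.48 to 7.62 at day 20 and 7.21 to 7.47 at day 0. P4ha2, a collagen prolyl hydroxylase, rose by 2.30 ± 0.20 and Hif1a by 1.56 ± 0.23, whereas Vegfa (0.16 ± 0.16) and Adm (-0.02 ± 0.19) were held. Of 29 mitochondrial respiration genes 15 were held (51.7%), with 5 called in each direction (17.2% each, against 22.1% higher and 16.0% lower of all genes). Immediate early and heat shock genes were called higher in 6 of 20 and lower in 3, where 22.1% and 16.0% of all genes were, and 5 were held (25.0%), with Nr4a2 at 0.93 ± 0.21, Jun at 0.68 ± 0.21 and Egr3 held at 0.00 ± 0.11, and of the 6 higher calls 0 were left with the name series as a block. Of 11 Schwann cell and nerve genes 7 were held (63.6%, near the 62.6% of all genes). Of 14 epidermal genes 6 were held (42.9%, below that share) and 1 was called lower.

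**Figure D5:**
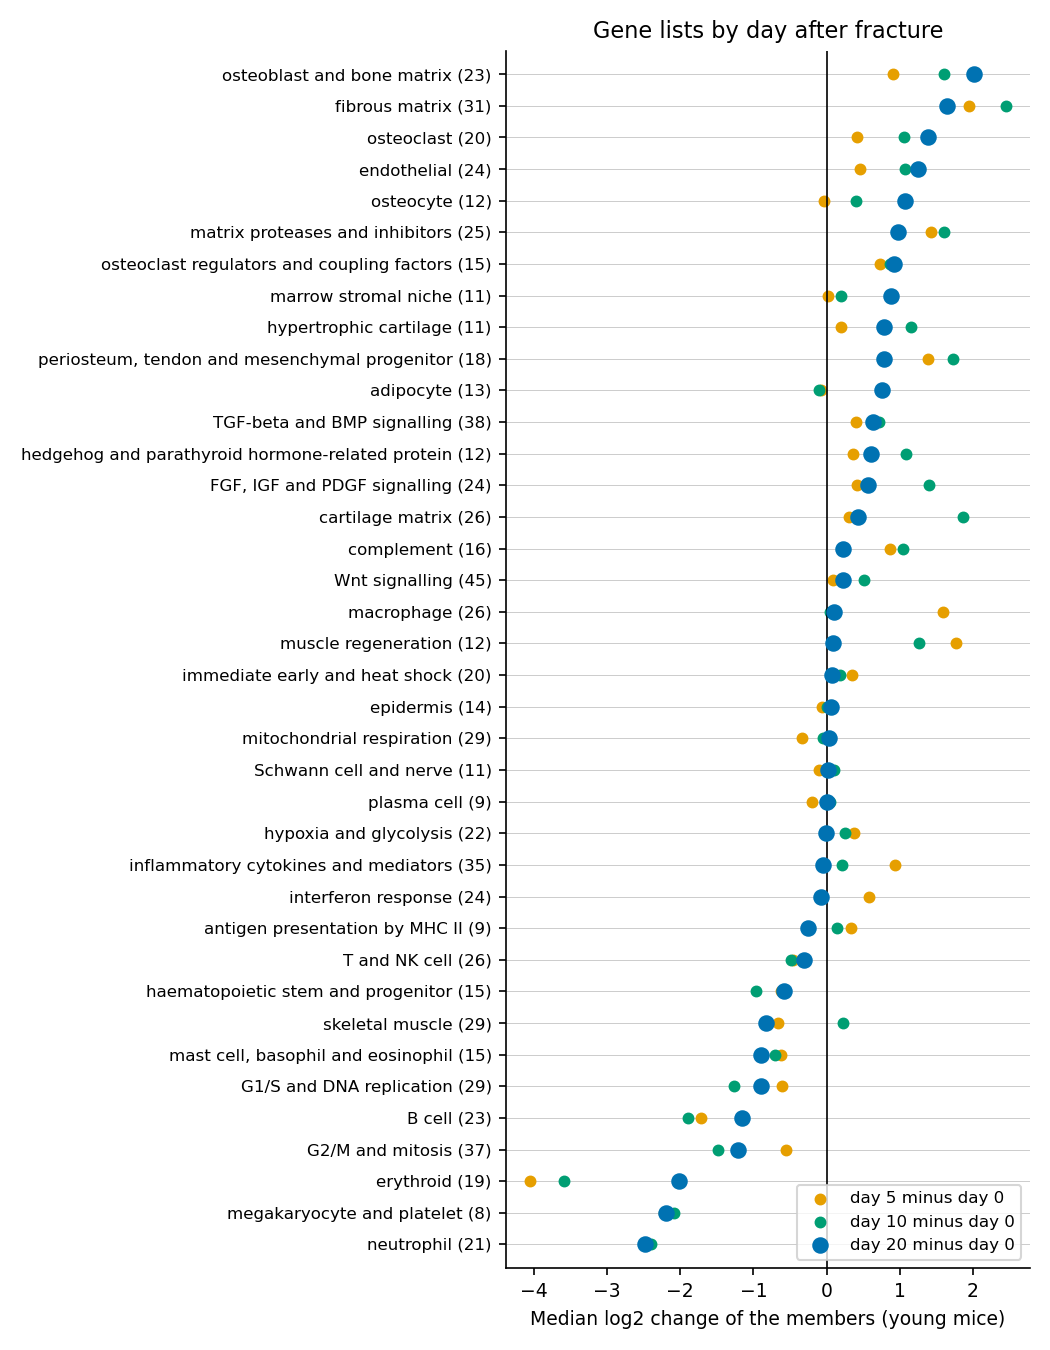
Median log2 change of the members of each gene list (number measured in brackets) at days 5, 10 and 20 minus day 0 in young mice, ordered by day 20. All 3 changes share the day 0 arrays. At day 20 osteoblast (2.02), fibrous (1.64) and osteoclast (1.38) medians are highest, and inflammatory, macrophage and muscle regeneration medians are -0.05, 0.10 and 0.09. Neutrophil, erythroid, platelet and B cell medians remain below 0.

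Genes that moved between days 5 and 10 were followed to day 20, since day 10 minus day 5 shares no array with day 20 minus day 0. In that earlier step 2153 genes were called higher (10.8%) and 1919 lower (9.62%). Of the 2153 higher genes 1241 (57.6%) were called higher at day 20, 98 (4.55%) lower, and 713 (33.1%) were held within 1.5-fold of day 0, against 22.1%, 16.0% and 62.6% of all genes. Of the 1919 lower genes 790 (41.2%) were called lower at day 20, 254 (13.2%) higher and 883 (46%) were held. With the name series as a block in the fit these counts were smaller, 575 and 309 called and 168 and 247 held. The shares of all genes include dim genes, and the sets were not matched to all genes by level. In the highest of 4 equal groups of genes by mean level 57.8% were called in either direction and 39.9% held.

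The genes with the largest step that were held at day 20 were named by rule. Upward they were Hhip (1.93 ± 0.13 from day 5 to day 10), Gpc3, Map3k7cl, Pfn2 and Gli1. Gpc3, a cell surface proteoglycan that restrains hedgehog signals, measured 5.70, 6.12, 6.25, 5.64 and 5.68 at day 20, against 5.67, 6.13, 5.85, 5.03 and 6.27 at day 0, with means of 5.79, 6.18, 7.80 and 5.88 on days 0, 5, 10 and 20 and a change of 0.09 ± 0.21 at day 20. Downward they were Gjb5, Il4ra, Ifi207, Ctss and Adgre1. Gjb5, a connexin, averaged 4.39, 6.76, 5.03 and 4.52 on days 0, 5, 10 and 20.

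The closest other comparison of the series is day 20 against day 0 in 25-month-old mice (5 and 6 arrays). Across genes the changes of both ages had a Pearson correlation of 0.94, given as a description over 19938 genes that are not independent. In old mice 3800 genes were called higher (19.1% of all genes) and 3145 lower (15.8%). Of 4414 genes higher in young mice 3204 were also called higher in old mice, which is 72.6% of the young and 84.3% of the old list. Of 3196 lower genes 2390 were also called lower in old mice, which is 74.8% and 76%. The test of the difference between ages called 0 genes (0.00%) in limma, with a smallest adjusted p of 0.53. An unadjusted p under 0.05 was reached by 1209 genes in that test, which is 6.06% of all genes. That 0 genes passed does not show that the ages were alike.

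List medians of young and old mice were 2.02 and 1.86 for osteoblasts, 1.38 and 1.39 for osteoclasts, -2.48 and -1.71 for neutrophils, -2.02 and -1.26 for erythroid cells, -1.21 and -0.83 for mitosis and 0.76 and 0.44 for adipocytes. Other lists had the larger median change in old mice. Young and old medians were -1.16 and -1.43 for B cells, 1.64 and 1.91 for fibrous matrix and 0.43 and 0.66 for cartilage matrix. Ly6g changed by -3.56 ± 0.53 in young and by -2.17 ± 0.51 in old mice, Pparg by 1.26 ± 0.18 and 0.44 ± 0.17, and Panx3 by 3.95 ± 0.42 and 4.22 ± 0.40. No single difference between ages passed the test.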

How the data were processed

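Total RNA of 41 mouse tibia samples was amplified, labelled as cDNA and hybridized to Affymetrix Mouse Gene 1.0 ST arrays, per the labels' protocols. The log2 values are normalized intensities that the authors deposited, and the submitters' processing notes name Partek. The sources used here give neither its version nor how background correction and summarization were done. No normalization was added. Of 28815 probe sets 1598 with several genes and 5435 outside the probe annotation were left out. Of the 21782 with 1 gene the one with the highest mean was kept for each gene (999 genes had several), which gave 19938 genes, with no filter on low values. The deposited p-value columns hold contrasts of age and days after fracture, per the file headers, and were counted at a step-up p under 0.05. The deposited ratio columns, signed fold columns and score columns (F and sums of squares), named so per the file headers, gave no value reported here.

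One mean for each of 8 groups of age and day was fitted with limma 3.58.1 under R 4.3.3 (33 residual degrees of freedom) and gave moderated two-sided tests, adjusted by Benjamini-Hochberg over all genes, and 95% intervals. The margin of 1.5-fold is 0.585 in log2 units. The script was tested on simulated data with known shifts. Summaries and figures used python 3.11.15, pandas 2.3.3, numpy 2.4.6, scipy 1.17.1 and matplotlib 3.10.9.

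The members, the margin and the 38 gene lists (797 of 852 symbols matched) were chosen with earlier results of these data known. Genes were named by rule: the 15 highest and 15 lowest called without overlap, up to 6 called and 3 held members of a list, cell type markers, and the 5 highest and 5 lowest from day 5 to day 10 among held genes. The called members of a list were those with the largest change, and the held members those with the smallest absolute change. Car2 and Vwf were added after their values were seen. Promoters came from RefSeq (GRCm38.p6), the only coordinates given, since the files name no build. Alternatives were other scalings, filters, probe set rules, variance models, blocks and subsets of arrays, and leaving out each array.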

Additional observations from a re-analysis of the deposited data

Results flagged for a closer look

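In 342 groups of 5 arrays of named genes, 10 had 1 array farther from the rest than Dixon's 95% critical value of 0.71 allows, and chance flags about 1 in 20 groups. Values are log2 levels, each set against its group's median. Among day 20 arrays, Acan was lowest in replicate 5, at 6.16 against a median of 7.63. Fap and Rspo3 were lowest in replicate 3, Fap at 9.99 against 10.28 and Rspo3 at 7.06 against 7.76. Egr3 was highest in replicate 1, at 6.52 against 6.32, and Fgf7 in replicate 2, at 6.92 against 6.84. Among day 0 arrays, replicate 2 held the lowest Acp5, at 8.45 against 9.47, and the highest Ear6, at 9.53 against 7.16, and Hif1a, at 8.2 against 7.65. Replicate 5 held the highest Fbln1, at 6.6 against 6.0, and the lowest Mmp8, at 10.23 against 11.03.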

How the results depend on the processing

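Of 169 genes named, 153 kept direction and side of the threshold under every alternative run, 14 fell short of it under at least 1, 2 passed it only under an alternative and 0 reversed. Of the list medians 842 moved by less than the spread and 31 by more, none changing sign where called. Counts of called genes ran between 6986 and 7665 when 1 array was left out, those of held genes between 12047 and 12377, and the test between ages called 0 throughout. A minimum of 2-fold left 1984 called genes. Held genes numbered 6144 within the narrower margin tried, 7683 without the dimmest 25% of genes and 4124 without the dimmer 50%, where fewer genes were tested. For genes that moved from day 5 to day 10, the name series as a block left 575 called higher and 168 held of those that had risen and 309 called lower and 247 held of those that had fallen, and the cause was not tested. Risen genes held numbered 1073 with array quality weights and 313 without the dimmer 50%. Leaving out 1 array gave 1166 to 1286 and 645 to 719 for risen genes called higher and held, and 720 to 842 and 817 to 873 for fallen genes called lower and held. The distance of day 20 minus that of day 10 ran between -0.117 without day 10 replicate 1, the only case past the threshold, and -0.063 without day 20 replicate 5. Deviations of day 20 and day 0 arrays with the same replicate number correlated at 0.07, 0.27, -0.02, 0.06 and -0.31, so the numbers were not treated as pairing mice. With the replicate block 4357 genes were called higher and 3137 lower (7494), and 1 of 5 pairs of arrays correlated best with its own number. Of called genes 58.0% were higher, against 50.4% after quantile normalization and 48.5% after median centring. With day 0 arrays of numbered names only, 3783 were higher and 2783 lower, and with lettered names only 3503 and 2322.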
